A study of Mus musculus with 10 samples.

Results

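The jejunum of fasted Vil-Cre mice was described on its own, from 5 of the 10 sequencing libraries of the series. The 5 were chosen by their column labels, Vil-Cre mice given vehicle, and each library comes from a different mouse. All were males aged 8 to 12 weeks, littermates of the Vil-Cre:NDI1 mice that make up the rest of the series. They carried the Vil1-cre transgene, in which the villin promoter drives Cre in intestinal epithelial cells, and lacked the NDI1 allele that Cre would switch on. They were fasted overnight for 16 to 18 h, given water by oral gavage and killed 1 h later. Whole jejunal tissue was flushed of its contents and frozen, so epithelium, lamina propria and muscle were all sequenced together. Fewer cells of a type and less RNA per cell cannot be told apart in such tissue. No fed mice and no mice without Cre are among these libraries.

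The jejunum is the part of the small intestine where most sugar, peptide and fat are taken up. Enterocytes line the villi, cut the last bonds of sugars and peptides with enzymes of their brush border, carry the products inward, and package fat into chylomicrons. Paneth cells at the crypt base release defensins and lysozyme, goblet cells release mucus, and stem cells between the Paneth cells renew the lining. In the enterocyte, respiration by mitochondrial complex I is the step on which the study of metformin behind this series turns.

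Reads assigned to genes numbered 10145705 to 11648074 per library (median 10960851). The deposited values are normalized counts, reads divided by a size factor per library, and 1 read was worth 0.934 to 1.09. At this depth, 19697 to 20228 genes per library had a read and 14217 to 14509 had a normalized count of at least 10. In all 5 mice together 12939 genes reached 10, of which 12202 were protein-coding genes, 56.7% of the 21519 protein-coding genes in the table. NDI1, the yeast gene absent from these mice by label, had 1 read in Vil-Cre 3 and none in the other 4.

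Enterocyte markers were present in every mouse, with a summed normalized count over 7 markers of 382340 ± 60224 (SD, n = 5). The jejunal label was checked against 3 genes of the proximal and middle small intestine. Their summed count was 27649 in Vil-Cre 1, 23890 in Vil-Cre 2, 39844 in Vil-Cre 3, 37061 in Vil-Cre 4 and 9219 in Vil-Cre 5. Pdx1, the transcription factor of the duodenum, had at most 6.01 normalized counts in a mouse. Of 6 pancreatic acinar markers, 4 had no read in any mouse. Vil-Cre 5 lies apart from the others on several markers described further on.

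The printed promoters show the sequences in front of 4 genes on which the account turns. Fabp6 and Slc10a2, the enterocyte's bile acid carrier and bile acid importer, varied together between mice. Defa20 and Fabp1 are among the most abundant nuclear transcripts. Each run is the 250 bases before the annotated start in RefSeq (GRCm38.p6), 5′ to 3′ on the strand of the gene. Capitals in Fabp6 mark GGTNA, any base and TNACC in a row, searched on both strands, an inverted repeat of the kind that the bile acid receptor FXR is known to bind, with first bases 221 and 141 bases before the start. Capitals in Slc10a2 mark TTTATNG on either strand, a sequence of the kind that CDX factors of the gut are known to bind, 175, 62 and 52 bases before the start. Capitals in Defa20 and Fabp1 mark TATAAA, the core of the TATA box, 31 and 30 bases before the start. Matches to TTTATNG on either strand also stand in the runs of Defa20 and Fabp1, where they are not marked.
Fabp6 (chr11:43601563-43601812, minus strand): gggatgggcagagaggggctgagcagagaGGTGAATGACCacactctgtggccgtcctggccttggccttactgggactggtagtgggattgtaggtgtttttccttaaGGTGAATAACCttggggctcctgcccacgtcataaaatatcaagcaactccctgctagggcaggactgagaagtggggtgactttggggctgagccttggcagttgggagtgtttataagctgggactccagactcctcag
Slc10a2 (chr8:5105288-5105537, minus strand): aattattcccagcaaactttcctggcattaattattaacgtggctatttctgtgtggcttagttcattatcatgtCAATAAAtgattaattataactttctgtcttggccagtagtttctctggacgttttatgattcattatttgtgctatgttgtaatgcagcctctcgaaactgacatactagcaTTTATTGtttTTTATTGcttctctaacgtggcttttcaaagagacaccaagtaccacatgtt
Defa20 (chr8:21509008-21509257, plus strand): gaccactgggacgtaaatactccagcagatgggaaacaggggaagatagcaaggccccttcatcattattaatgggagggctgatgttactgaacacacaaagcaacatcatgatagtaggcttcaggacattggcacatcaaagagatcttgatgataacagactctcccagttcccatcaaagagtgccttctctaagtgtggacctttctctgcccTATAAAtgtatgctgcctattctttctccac
Fabp1 (chr6:71199629-71199878, plus strand): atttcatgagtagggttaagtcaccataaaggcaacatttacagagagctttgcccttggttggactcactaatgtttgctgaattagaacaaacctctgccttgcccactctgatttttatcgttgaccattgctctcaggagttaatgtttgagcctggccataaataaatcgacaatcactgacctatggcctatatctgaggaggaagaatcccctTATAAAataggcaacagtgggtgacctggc

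Over windows that also take in 50 bases after the start, TATAAA stood on the gene's strand in 20 of the 75 promoters found for the 100 most abundant nuclear protein-coding genes, or 26.7%. It stood in 4.43% of the 9644 promoters found for all detected nuclear protein-coding genes. TTTATNG, searched on both strands, was in 29.3% of the former and 6.96% of the latter, and some of its matches overlap TATAAA. Promoters of the 100 genes held a median of 55% G and C and 6 CG pairs, against 61.0% and 21 for the detected genes. The inverted repeat of GGTNA and TNACC was in none of the 75 and in 0.176% of the promoters of detected genes. These are matches of letters in a fixed window. Over all 27025 genes with a promoter window, TATAAA was in 8.88%, TTTATNG in 11.3% and the inverted repeat in 0.252%.

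The most abundant transcripts were of mitochondrial origin or belonged to fat transport, the brush border and Paneth cells. Levels of different genes are ranked here per length, as TPM, for which each normalized count was divided by the gene's exon length and scaled so that each library sums to 1000000. mt-Co1, the catalytic subunit of cytochrome c oxidase encoded in mitochondrial DNA, had 25068 ± 4258 TPM (SD, n = 5) and mt-Co2 22627 ± 3357 TPM. Among nuclear protein-coding genes the mean level was highest for the Paneth cell defensin Defa24, with 19460 ± 7220 TPM, and for Apoa1, the main protein of high-density lipoprotein, with 19147 ± 3082 TPM. Fabp2, the intestinal fatty acid binding protein, had 13559 ± 2775 TPM. Apoa4, an apolipoprotein of chylomicrons, had 12290 ± 6340 TPM. The retinol carrier Rbp2, the brush-border aminopeptidase Anpep, the keratin Krt8, the lysozyme Lyz1, actin Actb and the liver-type fatty acid binding protein Fabp1 also stood among the first 20, between 5601 and 4163 TPM.

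**Figure D1:**
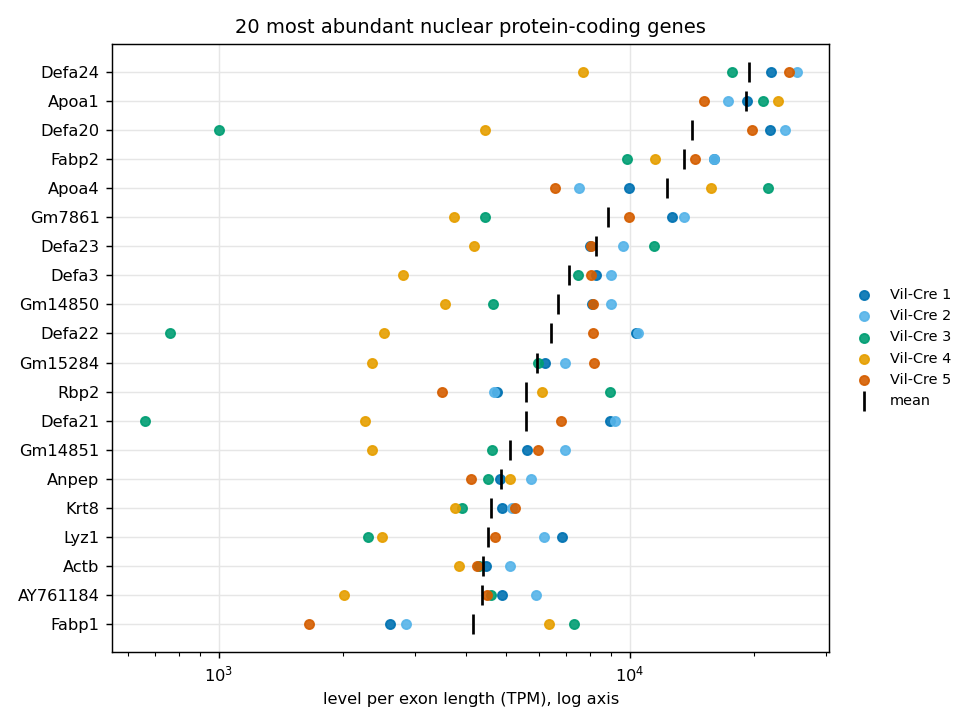
Levels of the 20 nuclear protein-coding genes with the highest mean, in TPM on a log axis, with a point for each of the 5 mice and a bar for the mean. Points of Anpep and Actb lie close together, those of Apoa4, Fabp1 and Rbp2 lie wider apart, and those of Defa20, Defa22 and Defa21 spread over 10-fold or more, with Vil-Cre 3 lowest.

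The order among these 20 was loose. In 0 of 19 neighbouring pairs was the higher gene higher in all 5 mice, so no neighbours in the order are set apart beyond the spread between mice. A total of 8 genes were in the first 20 of every mouse, and 32 were in the first 20 of at least 1. Apoa1 ranked between 1 and 3 and Fabp2 between 3 and 5, whereas Apoa4 ranked between 1 and 13 and Fabp1 between 5 and 57. Defa20 ranked between 2 and 106.

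Apoa1 (chr9:46228580-46230466) and Apoa4 (chr9:46240696-46243459) are neighbours on mouse chromosome 9, yet differed in spread. Apoa1 had normalized counts of 105373, 97391, 115848, 116836 and 76096 in Vil-Cre 1 to 5, a coefficient of variation (CV, SD over mean) of 16.3%. Apoa4 had 80178, 62046, 175027, 117299 and 48578, a CV of 52.6%. Both were lowest in Vil-Cre 5, and only Apoa4 stood far higher in Vil-Cre 3 than elsewhere. Exons of other annotated genes cover 69.8% of the exon bases of Apoa4, among them an antisense gene, and strand use in counting is not given in the sources used here. Fabp1 followed Apoa4 in rank of mice at the top, with 17987 in Vil-Cre 3, 14488 in Vil-Cre 4, 7195 in Vil-Cre 2, 6408 in Vil-Cre 1 and 3735 in Vil-Cre 5. Fabp2 went the other way, with 70500 in Vil-Cre 2, 68345 in Vil-Cre 1, 56618 in Vil-Cre 5, 45613 in Vil-Cre 4 and 42295 in Vil-Cre 3.

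Several entries among the 20 are alpha-defensin genes that lie in a cluster on mouse chromosome 8 and are near copies of each other. Of the 100-base windows of the longest transcript, 99.7% for Defa20, 89.1% for Defa23, 86.8% for Defa3, 40.3% for Defa22 and 40.4% for Defa21 also occur in a transcript of another gene. Values of these single genes are therefore uncertain. None of the windows of Defa24 recurred in another gene. Defa24 had normalized counts of 40943, 48553, 32949, 13275 and 41623 in Vil-Cre 1 to 5. Defa20 (chr8:21509258-21510237) had 41232, 46152, 1890, 7779 and 34257. Over all 39 genes named as alpha-defensins, of which 17 reached 10 in every mouse, the sum was 211070, 237399, 100529, 60565 and 184930. Gm7861 lies between Defa20 and Defa24, and 95.6% of its windows occur in another gene. It had 28338, 31167, 9970, 7783 and 20446, and is in neither this sum nor the list of Paneth cell genes. Both the sum and Defa24 were lowest in Vil-Cre 4, while Defa20 was lowest in Vil-Cre 3.

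The counts were concentrated in few genes. The single most abundant gene of a library held 1.53% ± 0.233 of its counts (SD, n = 5), the first 10 held 7.75% ± 0.963 and the first 100 held 26.5% ± 1.33. On average 586.8 genes made up 50% of the counts and 4995.4 made up 90%. Vil-Cre 5 was the least concentrated, with 662 genes to 50%, and the other mice needed 549 to 584. Protein-coding genes held 98.1% ± 0.123 of the counts and long intergenic RNAs 0.401% ± 0.0253. Of 1108 olfactory receptor genes 1 reached 10 in all mice, and of 327 vomeronasal receptor genes 0 did. Of 351 solute carrier genes 230 did, and they held 3.13% ± 0.180 of the counts.

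**Figure D2:**
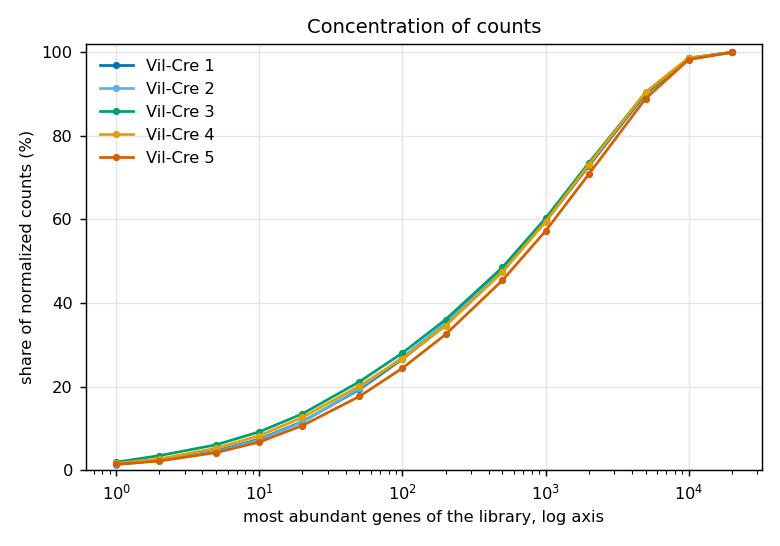
Share of normalized counts, in percent, held by the most abundant genes of each library, against their number on a log axis, with a line for each of the 5 mice. The lines run close together, with Vil-Cre 3 highest up to 2000 genes and Vil-Cre 5 lowest from 2 to 20000 genes.

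By function, 48 lists of genes took in 2131 genes and 45.5% ± 1.37 of the counts. A gene counts in the first list that holds it. The largest shares belonged to the 13 protein genes of mitochondrial DNA with 5.16% ± 0.731, fat absorption and chylomicron assembly with 4.64% ± 0.799, the brush-border cytoskeleton and mucins with 3.21% ± 0.173, cytosolic ribosomal proteins with 3.06% ± 0.240, and peptidases with peptide and amino acid uptake with 2.97% ± 0.277. Paneth cell and antimicrobial genes held 2.39% ± 0.890. Per exon length the picture shifted, since several of these genes are short: mitochondrially encoded protein genes then held 13.9% and Paneth cell genes 10.9% of the total.

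**Figure D3:**
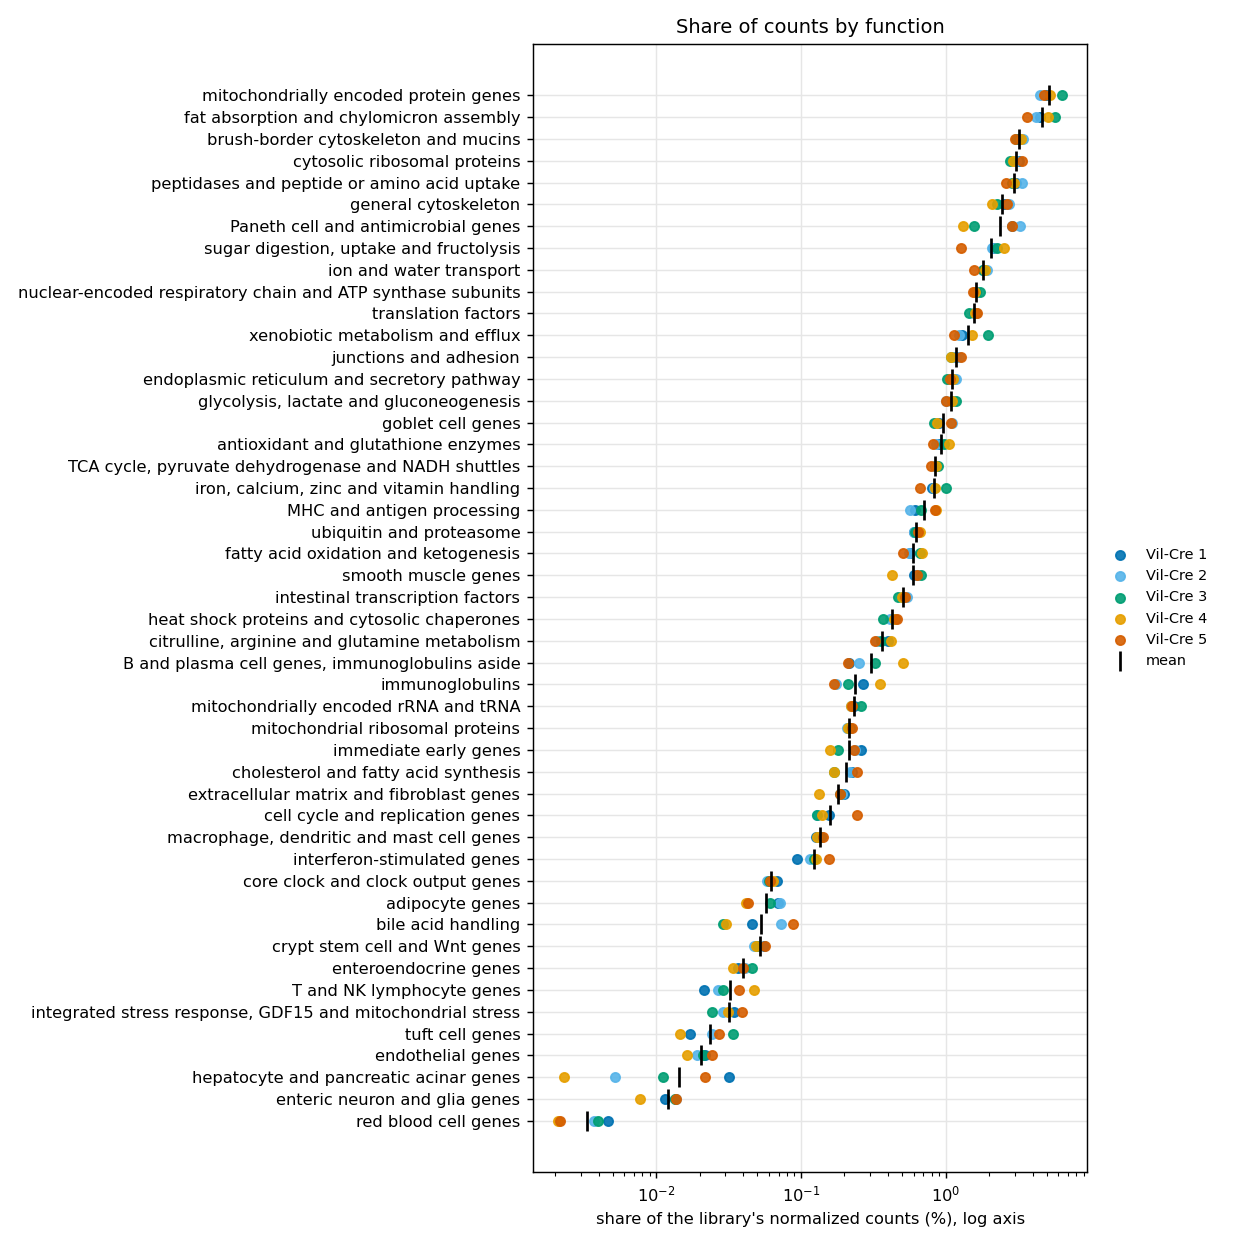
Share of each library's normalized counts, in percent on a log axis, held by 48 lists of genes, with a point for each of the 5 mice and a bar for the mean. The mouse-to-mouse range is narrow for the ubiquitin and proteasome list, with a ratio of 1.09 between the highest and lowest mouse, and wide for hepatocyte, bile acid and Paneth cell genes. The hepatocyte share is 0.184% in place of 0.0144% where genes count in every list that holds them.

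Fat handling was dominated by apolipoproteins. Of 38 genes in that list 37 reached 10 in every mouse, and Apoa1, Apoa4 and Apob, the scaffold protein of the chylomicron, held 53.5% of its counts. Apob had 67477, 67466, 88550, 83522 and 52470 normalized counts in Vil-Cre 1 to 5, highest in Vil-Cre 3 and lowest in Vil-Cre 5. The share of the whole list followed the same extremes, from 3.64% in Vil-Cre 5 to 5.73% in Vil-Cre 3. Genes of fatty acid oxidation and ketogenesis held 0.599% ± 0.0769. Cpt1a, which brings fatty acids into mitochondria, had 1408 ± 212 normalized counts.

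Sugar digestion and uptake held 2.06% ± 0.474 of the counts, with all 22 listed genes above 10 in every mouse. Sis and Mgam, the brush-border enzymes that split sucrose and starch, together with the sodium-coupled glucose carrier Slc5a1, held 59.8% of it. Slc5a1 (chr5:33104219-33162870) had normalized counts of 42525, 45780, 40962, 45819 and 27464 in Vil-Cre 1 to 5, with 4 mice within a narrow band and Vil-Cre 5 below them. Lct, the lactase that splits milk sugar, had 21050, 16925, 31347, 28829 and 6088. Slc2a2, the glucose carrier of the basal side, had 5476, 5904, 7134, 6912 and 2428. Slc2a5, the fructose carrier, had 1644, 1528, 2201, 1836 and 873. All 4 carriers and enzymes were lowest in Vil-Cre 5, and 10 of the 22 genes were highest in Vil-Cre 3 and 10 in Vil-Cre 4. The median CV of the list was 30.9%, and 17.6% without Vil-Cre 5.

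Peptidases of the brush border were abundant. Anpep, which trims amino acids from the ends of peptides, had 88643, 108250, 82948, 86695 and 68999 normalized counts in Vil-Cre 1 to 5. Enpep, the glutamyl aminopeptidase, had 20134 ± 3070. Structural genes of the brush border were steadier, with villin Vil1 at 40711 ± 4805 and the galectin Lgals4 at 33818 ± 2858. The adhesion protein Epcam, a general epithelial marker, had a CV of 5.65%.

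Handling of amino acid nitrogen was represented by Glud1, glutamate dehydrogenase, with 9287 ± 2905 normalized counts, Oat, ornithine aminotransferase, with 5786 ± 1092, and Gpt, alanine aminotransferase, with 5313 ± 594. Glud1 was highest in Vil-Cre 4 and lowest in Vil-Cre 5. Iron storage genes ran in the same order of mice in both chains, with Vil-Cre 3 highest and Vil-Cre 5 lowest: the heavy chain Fth1 had 12862 ± 2122 and the light chain Ftl1 7244 ± 1005. Cholesterol and fatty acid synthesis held 0.205% ± 0.0336, and 24 of its 37 genes were highest in Vil-Cre 5. Hmgcs1, an early enzyme of that pathway, had 1256, 1394, 937, 826 and 1842.

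Among enzymes of glucose metabolism, Pck1, which starts glucose synthesis from oxaloacetate, held the largest share of the counts of its list, with 20277 ± 5712 normalized counts. Ldha, which makes lactate, had 12740 ± 777 and a CV of 6.1%. G6pc, which releases free glucose, had 2252, 1153, 2286, 3099 and 837 in Vil-Cre 1 to 5. Hk2, an inducible hexokinase, had 697 in Vil-Cre 5 and 234 to 316 in the other 4. The lactate carrier Slc16a1 had 829.7 ± 72. Gdf15, a stress hormone, was near the counting floor of 3 reads, with 2.0 to 12 normalized counts.

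Nuclear subunits of the respiratory chain were even between mice, and mitochondrially encoded ones less so. The 88 nuclear genes of the list, 82 of them above 10 in every mouse, held 1.61% ± 0.0731 of the counts. Their median CV was 9.69%, against 15.4% for the 13 mitochondrially encoded genes. Without Vil-Cre 3 these medians were closer, at 6.92% and 8.49%. For complex I, the entry point of electrons from NADH, 37 nuclear genes held 0.324% ± 0.0149 and the 7 mitochondrial genes 1.5% ± 0.224. For complex II, which takes electrons from succinate, 4 nuclear genes held 0.115% ± 0.00947. The 3 mitochondrial genes of complex IV, which passes electrons to oxygen, held 2.57% ± 0.370, against 0.299% ± 0.0164 for 18 nuclear genes. Per length, the median level was 144 TPM for the nuclear subunits of complex I that had a mean of at least 10 and 4665 TPM for its mitochondrial subunits.

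All 13 mitochondrially encoded protein genes were highest in Vil-Cre 3, and so were 57 of the 82 nuclear respiratory genes with a mean of at least 10. Over all 14581 genes with such a mean, Vil-Cre 1 to 5 were highest for 15.7%, 18.2%, 21.2%, 21.3% and 23.5%, shares against which all such counts of members are to be read. mt-Co2 (chrM:7013-7696) had 62312, 61204, 85693, 65090 and 60155 normalized counts in Vil-Cre 1 to 5, with 4 mice close together and Vil-Cre 3 above them. Nuclear respiratory genes were a median of 0.21 higher on the log2 scale in Vil-Cre 3 than in the mean of the other 4, and mitochondrially encoded protein genes 0.45 higher. In Vil-Cre 5 the same medians were -0.19 and -0.26, with 56 of the 82 nuclear and 10 of the 13 mitochondrial genes lowest there. The part of mitochondrial number or of cell makeup in this was not tested.

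Ribosomal protein genes were even between mice. The 84 cytosolic ribosomal protein genes with a mean of at least 10 had a median CV of 6.35%, against 19.9% for all genes with such a mean. Their share was 3.21%, 3.05%, 2.78%, 2.90% and 3.38% in Vil-Cre 1 to 5. Ubiquitin and proteasome genes had a median CV of 8.59%, heat shock and chaperone genes 10%, translation factors 10.3% and citric acid cycle genes 10.6%. By share of the list as a whole, ribosomal proteins, with a CV of 7.82%, were less even than the ubiquitin and proteasome list, with 4%. Shares are of each library's own total, whereas gene CVs are of normalized counts. That total was 10164900 in Vil-Cre 5 and 10884500 to 11176000 in the other mice. By normalized count, 43 of the 84 ribosomal protein genes were highest in Vil-Cre 1 and 21 in Vil-Cre 5. Rplp0, a stalk protein of the large ribosomal subunit, had 10727 ± 1201 normalized counts.

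Secretory and rare epithelial cells were seen in all mice. Goblet cell markers summed to 95678 ± 10953. Muc2, the gel-forming mucin, had 11852 ± 2329 normalized counts, and Fcgbp, which binds to it, had 36381, 41482, 41057, 41935 and 39144, a CV of 5.71%. Clca1, another secreted goblet protein, spread from 8911 in Vil-Cre 4 to 25881 in Vil-Cre 5. Enteroendocrine markers summed to 2100 ± 357, with the general marker Chga at 558 ± 69.6, somatostatin Sst at 251 ± 42.3 and the incretin Gip at 373 ± 165. Gip was 595 in Vil-Cre 3, 497 in Vil-Cre 4 and 204 to 290 in the other 3. The stem cell markers summed to 1654 ± 320, with Lgr5 at 90.5 ± 30.7 and Olfm4 at 1044 ± 268.

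Spread between mice was measured as the CV of normalized counts. Over the 14581 genes with a mean of at least 10 the median CV was 19.9%, and 90% of genes lay between 5.97% and 76.4%. Counting alone would give these genes a median CV of 7.40%, and 16.9% remained when its variance was taken off. The median CV fell from 34.4% at means of 10 to 100 to 15.1% at 100 to 1000 and 11.9% at 1000 to 10000. It was 15.4% for the 129 genes above 10000, where counting gives 0.784%. Without Vil-Cre 5 the median over all these genes was 18%, and without Vil-Cre 4 it was 18.3%.

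**Figure D4:**
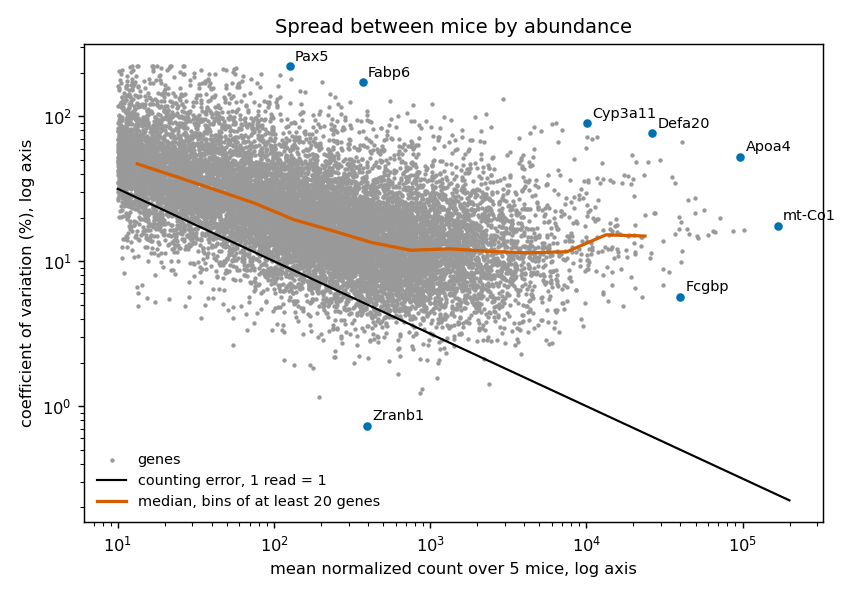
Coefficient of variation over the 5 mice, in percent, against the mean normalized count, both on log axes, with a grey point for each of 14581 genes, an orange line for the median of bins and a black line for the error that counting alone would give. The median falls with abundance and is higher again above 10000, at 15.4%, well above the counting line.

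Pairs of mice agreed in rank order with Spearman correlations between 0.951, for Vil-Cre 3 and Vil-Cre 5, and 0.974, for Vil-Cre 1 and Vil-Cre 2. These are correlations across 14581 genes of 2 libraries each, and genes are not independent replicates. Between 68.9% and 80.7% of the genes lay within 1.5-fold of each other in a pair. Vil-Cre 5 was the lowest mouse for 23.8% of genes and Vil-Cre 1 for 15.1%, where an even division gives 20%.

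The lowest CVs lay below what counting alone gives, so they do not set single genes apart as steady. Among genes with a mean of at least 100, immunoglobulins aside, the lowest CV was that of Zranb1, a deubiquitinase, with 394, 394, 400, 393 and 392 normalized counts, a CV of 0.732%. Counting alone gives a gene of this mean 5.04%. Among the 15 lowest were also Egln2, an oxygen-sensing prolyl hydroxylase, with a CV of 1.31%, the cytoskeletal Specc1l with 1.43%, the sorting nexin Snx3 with 1.99% and the translation initiation factor subunit Eif3l with 2.09%. All 15 lay below their counting error, as did 365 of 9157 genes at this mean, 3.99%.

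At the other end, 38 of these 9157 genes had a CV above 100%, and for 54 genes a single mouse held over 50% of the sum over the 5 mice. That mouse was Vil-Cre 5 for 19 genes, Vil-Cre 3 for 14, Vil-Cre 1 for 10, Vil-Cre 2 for 6 and Vil-Cre 4 for 5. Of the 54 genes, 37 are in none of the 48 lists and 17 are in one, 5 of them in that of xenobiotic metabolism. The genes described next include others of the lists and markers.

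Genes of B lymphocytes were seen in Vil-Cre 5. Pax5, the transcription factor that fixes B cell identity, had 0.934, 1.09, 0, 3.03 and 624 normalized counts in Vil-Cre 1 to 5. Ms4a1, which encodes CD20, had 236 in Vil-Cre 5 and 0 to 6.07 elsewhere, and the complement receptor Cr2 had 132 against 0 in all other mice. For Cr2 this is at least 40.2-fold higher than the largest floor of 3 reads among the other libraries. Cd37 had 539 against 32.1 to 72.8, and the immunoglobulin M chain Ighm 834 against 32.7 to 63.7. Of the 16 genes in the list of B and plasma cell genes, 8 reached 10 in every mouse. Several of the others, Cr2 and Ms4a1 among them, had a mean of at least 10 only through Vil-Cre 5.

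Plasma cell genes went another way. Igha, the immunoglobulin A chain of the gut, had 16734, 10699, 13988, 21135 and 7927, highest in Vil-Cre 4 and lowest in Vil-Cre 5. The T cell proteases were also highest in Vil-Cre 4, Gzma with 1351 against 382 to 834 and Gzmb with 813 against 193 to 353. Of 31 T and NK lymphocyte genes with a mean of at least 10, 19 were highest in Vil-Cre 4 and 12 in Vil-Cre 5. Vil-Cre 5 was also the lowest mouse for 12 of the 31, and the T cell markers summed lowest there, to 888. Proliferation genes were highest in Vil-Cre 5 for 32 of 40, and their share was 0.246% there and 0.128% to 0.157% in the other mice. The median CV of proliferation genes was 20.4%, and 15.6% without Vil-Cre 5. Interferon-stimulated genes were highest in Vil-Cre 5 for 18 of 30, and genes of antigen presentation by MHC molecules for 21 of 35. The summed share of the MHC list was nevertheless highest in Vil-Cre 4, at 0.856% against 0.844% in Vil-Cre 5, and the class I genes H2-K1 and H2-D1 and B2m, their light chain, were highest in Vil-Cre 4. Whether lymphoid tissue was included in the piece of jejunum was not tested.

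Genes that mark position along the intestine also differed between mice. Fabp6, which carries bile acids in cells of the ileum, had 36.4, 325, 5.01, 0 and 1477 normalized counts in Vil-Cre 1 to 5. Slc10a2, the ileal importer of bile acids, had 199, 561, 6.01, 12 and 561. Fgf15, the hormone that ileal cells release when bile acids return, had 3.74, 29.5, 0, 0 and 62.2, and Slc51a, a subunit of the bile acid exporter, had 3208, 4772, 2047, 1977 and 4127. The mice thus ordered alike in these genes, with Vil-Cre 5 and Vil-Cre 2 above and Vil-Cre 3 and Vil-Cre 4 below. Fabp6 and Slc10a2 are the genes whose promoters are printed above with the FXR-type and CDX-type letters. The CDX-type letters are not particular to Slc10a2. They also stand in the printed promoters of Defa20 and of Fabp1, which was highest in Vil-Cre 3 and lowest in Vil-Cre 5.

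The markers of the jejunum ran against this order, and those of the duodenum went with it only in part. The 3 duodenal markers summed to 121, 87.5, 41.1, 47.5 and 97.1. These low values were highest in Vil-Cre 1, and lower in Vil-Cre 3 and Vil-Cre 4 than in the other mice. Gata4, the factor that sets jejunal identity, had 1123, 1060, 1364, 1319 and 703, and Lct and Slc2a2, given above, were likewise highest in Vil-Cre 3 and lowest in Vil-Cre 5. Onecut2, Slc46a1 and Car2, given next, are not among the segment markers. For Onecut2 and Slc46a1, Vil-Cre 3 held most of the summed counts, which is itself a rule for naming genes here. Their height in Vil-Cre 3 was therefore selected for. Onecut2, a factor of the proximal intestine, had 744 in Vil-Cre 3, 407 in Vil-Cre 4 and 33 to 62.6 in the other mice. Slc46a1, the folate carrier of the proximal intestine, had 1132 in Vil-Cre 3, 388 in Vil-Cre 4 and 108 to 201 elsewhere. Car2, a carbonic anhydrase, had 366 in Vil-Cre 4 and 244 in Vil-Cre 3, against 37.2 to 43.7 in the other 3. The place along the jejunum from which each piece came is not given in the sources used here, and its part in these values was not tested.

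**Figure D5:**
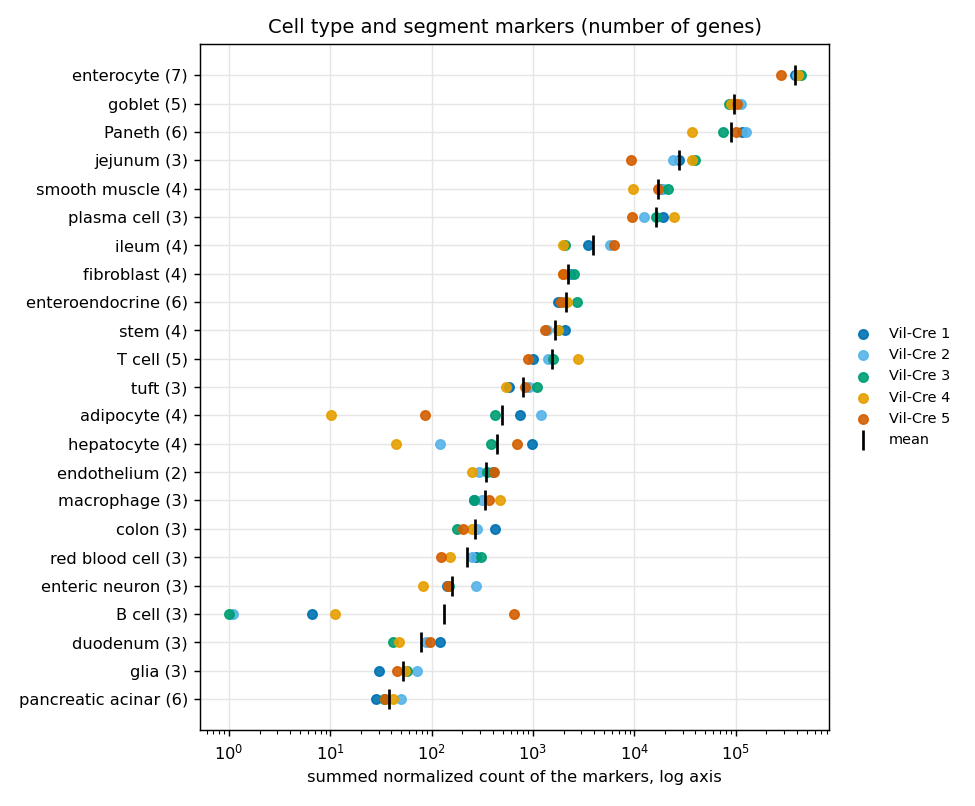
Summed normalized counts of marker genes for cell types and intestinal segments, on a log axis, with a point for each of the 5 mice, a bar for the mean and the number of genes in brackets. Vil-Cre 5 lies above the others for B cells and below for jejunum, and Vil-Cre 4 lies lowest for smooth muscle, adipocyte, hepatocyte and Paneth markers.

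Duox2, Duoxa2 and Sprr2a2 were chosen after their values were seen, so the order of mice that they share was selected for. Duox2, the epithelial oxidase that makes hydrogen peroxide at the gut surface, had 5036, 9740, 1875, 375 and 13296 normalized counts. Its maturation factor Duoxa2 had 1509, 3015, 433, 58.6 and 4661. Sprr2a2, a small proline-rich protein of the epithelial surface, had 31834, 51594, 26887, 11683 and 82367. The phospholipase Pla2g4c had 642, 4718, 325, 8.09 and 8932. Pla2g4c was named for its high CV and because Vil-Cre 5 held 61.1% of its summed counts. Its height in Vil-Cre 5 was therefore selected for as well. All 4 were highest in Vil-Cre 5, next in Vil-Cre 2 and lowest in Vil-Cre 4.

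Many genes of drug and foreign compound metabolism were highest in Vil-Cre 3. Cyp3a11, a broad cytochrome P450, had 5810, 4735, 25513, 11132 and 3385, and Cyp2c55 had 1082 in Vil-Cre 3 against 190 to 287. The glutathione transferase Gstm1 had 2133 against 373 to 686. Of 114 genes of this list with a mean of at least 10, 62 were highest in Vil-Cre 3 and 20 in Vil-Cre 4. The list's share of the counts was 1.96% in Vil-Cre 3 and 1.14% to 1.52% elsewhere. The cause was not tested.

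Other tissue layers differed too. Smooth muscle markers summed to 9764 in Vil-Cre 4 and 17207 to 21244 in the other 4. Myh11, the smooth muscle myosin, had 5225 in Vil-Cre 4 against 8489 to 11595. Adipocyte markers summed to 744, 1191, 418, 10.1 and 85.5. Adipoq, the adipocyte hormone adiponectin, had 113, 164, 72.1, 1.0 and 7.77, and Cfd, another secreted adipocyte protein, 603, 975, 296, 5.06 and 76.7. Alb, the serum albumin of hepatocytes, had 763, 63.5, 294, 15.2 and 557. Of 63 hepatocyte and acinar genes only 5 reached 10 in every mouse.

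Immediate early genes, which respond within minutes to a stimulus, held 0.26%, 0.235%, 0.181%, 0.158% and 0.232% of the counts in Vil-Cre 1 to 5, lowest in Vil-Cre 4. Nr4a2, a nuclear receptor of this class, had 682, 770, 29.1, 22.2 and 32.1. Of 20 immediate early genes with a mean of at least 10, 10 were highest in Vil-Cre 1, 6 in Vil-Cre 2 and 4 in Vil-Cre 5. Core clock and clock output genes together held 0.0625% ± 0.00378 of the counts, with a ratio of 1.17 between the highest and lowest mouse. Single clock genes were less even than this sum. Their median CV was 27.7%, against 19.9% for all genes with a mean of at least 10, and ranged from 7.76% to 115.6%.

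Other genes stood far higher in 1 mouse. Ttc7 had 6457 normalized counts in Vil-Cre 1 against 930 to 1435, and the calcium channel gene Cacna1a 845 against 82.9 to 118. Arap1, a regulator of small GTPases, had 3298 in Vil-Cre 2 against 430 to 488. Uqcc1, an assembly factor of complex III, had 1830 in Vil-Cre 3 against 165 to 274, Nhej1, a DNA repair factor, 544 against 19.7 to 32.1, and Lepr, the leptin receptor, 378 against 28.3 to 62.2. Acsm3, a mitochondrial acyl-CoA synthetase, had 571 in Vil-Cre 4 against 24 to 77.6, and other genes cover 39.7% of its exon bases. Exons of other genes cover over 10% of the exon bases in 5 of the 54 genes held by a single mouse, 9.26%, against 14.4% over all genes with a mean of at least 100 and an exon length.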

How the data were processed

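Jejunal RNA of 5 Vil-Cre mice was sequenced, single-end, 100 cycles. The authors trimmed reads with trimGalore 0.6.7, aligned them with STAR 2.6.1d to GRCm38 with the NDI1 sequence added, and assigned them to genes with Salmon 1.10.1 in nf-core/rnaseq 3.12.0. The deposited signal is normalized counts per gene, reads divided by a DESeq2 size factor. The annotation release is not given in the sources used here. The table has 45707 rows, of which 45143 identifiers were found in GENCODE M21, used for coordinates and lengths. The smallest non-zero value of a library was taken as 1 read. All non-zero values were whole multiples of it within 0.01. Reads were 10145705 to 11648074 per library, which sets the counting error given beside the CV. Nothing was compared between genotypes, and groups of samples were not tested against each other. Dixon's criterion was applied to single values over the 5 mice. Python 3.11.15 with pandas 2.3.3 computed shares, TPM (union exon length), CV (SD over 5 mice) and rank correlations. The spread calculation was tested on simulated data.

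Genes named are the 20 highest by TPM, the 3 highest by count in each of 48 lists, the 15 highest and lowest by CV at a mean of at least 100 (immunoglobulins apart), cell type markers, mitochondrially encoded protein genes, and genes for which 1 mouse held over 50% of the sum. Others were added after their values were seen or for their role in glucose, fat and stress metabolism. The lists and genes were chosen with earlier results of these data known. The CV of a list without 1 mouse was added after seeing the data. Alternatives were other minimums, scalings and length measures, and leaving out each mouse. Promoters are from RefSeq. Some genes that the rule names are not reported here.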

Additional observations from a re-analysis of the deposited data

Results flagged for a closer look

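Of 153 groups of 5 values looked at, 31 had a mouse far from the other 4 by Dixon's criterion at its 95% level. Chance alone flags about 1 in 20 groups, but many of these genes were named because a single mouse was high or after their values were seen, so the count is a description and is not to be set against chance. The mouse was Vil-Cre 5 in 11, Vil-Cre 3 in 10, Vil-Cre 4 in 6, Vil-Cre 1 in 3 and Vil-Cre 2 in 1. Causes were not tested. Values are normalized counts unless given as shares.

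In Vil-Cre 5 the B cell genes Pax5 with 624, Ms4a1 with 236, Cr2 with 132, Cd37 with 539, Ighm with 834 and Ighg2b with 412 lay above the other mice. So did Fabp6 with 1477, Hk2 with 697 and the share of cell cycle genes, 0.246%. Slc5a1 with 27464 and Snx3 with 1090 lay below. Snx3 is in this group only because its other values lay within 1133 to 1144.

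In Vil-Cre 3 the values of mt-Co2, 85693, mt-Nd3, 5743, and the share of mitochondrially encoded rRNA and tRNA, 0.261%, lay above. The same was seen for Cyp2c55 with 1082, Gstm1 with 2133, Slc46a1 with 1132, Lepr with 378, Nhej1 with 544 and Uqcc1 with 1830. Zranb1 with 399.7 is in this group only because its other values lay within 392 to 394.

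In Vil-Cre 4 the share of smooth muscle genes, 0.425%, that of extracellular matrix and fibroblast genes, 0.132%, and Actg2, a smooth muscle actin, with 873 lay below, as did the defensin Defa3 with 4727. Gzmb with 813 and Acsm3 with 571 lay above. In Vil-Cre 1 this held for Ttc7 with 6457, Cacna1a with 845 and Gm14327 with 488, and in Vil-Cre 2 for Arap1 with 3298.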

How the results depend on the processing

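No paired analysis was possible because the 5 mice form a single group and no groups of samples were compared. Of the alternatives to the main values, 43 stayed within the spread between mice or 1.5 times a count, and 15 moved. The share in the 100 most abundant genes was 23.8% with mitochondrially encoded genes left out and 45.3% per exon length, and per exon length 147.6 genes held 50%. The share in the 48 lists was 42.4% and 62.9% under the same settings. Per exon length, 20 lists had a higher share and 28 a lower one. The median CV was 27.8% at a mean of at least 1, 15.8% at 50 and 14.4% at 100. It was 15.8% by a robust measure, 16.9% with counting variance subtracted, and 18% to 20.2% with each mouse left out. The lowest Spearman correlation was 0.951 to 0.962 with each mouse left out and 0.925 at a mean of at least 100. Ranked by count without length, 7 of the 20 most abundant genes stayed among the 20. Taken without an order of lists, the share of hepatocyte and acinar genes was 0.184% and not 0.0144%. Depth limits genes near 3 reads.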
